A study of Homo sapiens with 18 samples.

Results

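The comparison described here set THP-1 cells with an S100A9 overexpression lentivirus against THP-1 cells with the empty vector, both kept in Adavivint, across all genes. It was chosen by the labelled vector and drug and rests on 6 of the 18 libraries of the study, 3 with S100A9 overexpression plus Adavivint (OE+Ada in the plots) and 3 with empty vector plus Adavivint (EV+Ada). THP-1 is an established human monocytic leukemia line, labelled as acute myeloid leukemia, and was grown in RPMI medium with fetal bovine serum. The cells of all 6 libraries had been transduced with a lentivirus and selected with 2 µg/mL puromycin from 48 hours after transduction for at least 24 hours. All then received 1 µM Adavivint for 36 hours. The 6 THP-1 libraries of the same vectors without Adavivint (EV and OE in the plots) served to ask whether the overexpression effect differed with the drug. Total RNA was taken with TRIzol, no vehicle is named for the untreated cells, and the labels do not give the promoter of the vector or say whether the cells were pools or clones. Since the replicates are not described as independent cultures, every p-value reflects only the variation among these libraries, and that variation may be technical.

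S100A9 is a small calcium-binding protein of monocytes and neutrophils that pairs with S100A8 to form calprotectin, which can be released and signal through receptors such as TLR4 and RAGE. Adavivint, or lorecivivint, was developed to dampen Wnt signalling and is reported to block DYRK1A and CLK2, kinases that act on splicing factors and on cell-cycle regulators. In dividing cells the genes for DNA synthesis peak ahead of S phase under E2F factors, whereas genes for mitosis peak in G2 and M phase under the DREAM and MMB complexes with FOXM1. Leukemia lines hold cells of all these stages, so a bulk library mixes them: a change in the number of cells in a stage and a change in RNA per cell cannot be told apart.

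The 3 empty-vector libraries under the drug held 41.8 to 45.2 M counts and the 3 overexpression libraries under the drug 38.4 to 45.3 M (M stands for 1e6), and 15403 genes had enough counts to be tested. Levels below are CPM, the count of a gene per 1e6 counts of its library, on library sizes scaled by TMM factors, which lay between 1.00 and 1.01 in the empty-vector libraries under the drug and between 0.960 and 0.976 in the overexpression libraries under the drug. All 14 of 14 markers of a monocytic line averaged at least 1 CPM in both groups, with summed levels of 1732 to 1909 CPM with empty vector and 1824 to 1900 CPM with overexpression. Summed markers of other cell types were 7.41 to 8.67 against 8.52 to 10.3 CPM for epithelial genes (10 of 12 listed were in the table, and KRT18 had no count in either group), 46.0 to 47.3 against 48.5 to 54.4 CPM for lymphoid genes (8 of 10), 1.22 to 1.47 against 1.16 to 1.63 CPM for erythroid and megakaryocytic genes (9 of 12, with GATA1 and PPBP at 0 in both groups) and 83.6 to 93.1 against 83.7 to 92.6 CPM for stromal and endothelial genes (10 of 10, with COL3A1 at 0 in both). Nearly all of the stromal and endothelial sum was PECAM1 (86.3 CPM with empty vector and 87.1 CPM with overexpression), the only 1 of the 10 members to average at least 1 CPM. The lymphoid sum did not overlap between the groups, and of its members CD79A, a B-cell receptor subunit, was called higher (log2 fold change 0.52, SE 0.10, adjusted p = 0.00859). A gene is called where its adjusted p is below 0.05 in edgeR's quasi-likelihood test with Benjamini-Hochberg adjustment over all genes tested, and log2 fold changes are overexpression over empty vector.

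S100A9 itself (ENSG00000163220) read 15.0, 14.0 and 12.8 CPM in the empty-vector libraries under the drug and 103, 113 and 105 CPM in the overexpression libraries under the drug. The groups were far apart, and the overexpression libraries stood 7.67-fold higher (log2 fold change 2.94, SE 0.20, adjusted p = 1.8e-05 with edgeR). Without the drug the same vectors differed by 2.13 on the log2 scale, and the difference between both effects, 0.81 (SE 0.28), did not pass the test (adjusted p = 0.0548). Counts do not separate vector transcripts from those of the endogenous gene. S100A8, the calprotectin partner, read 4.01, 4.07 and 4.31 CPM against 5.89, 6.10 and 4.75 CPM. The libraries did not overlap, but the log2 fold change of 0.43 (SE 0.25) did not pass (adjusted p = 0.317). For S100A8 the overexpression effect was -0.99 without the drug, and the difference between the effects passed (log2 difference 1.42, adjusted p = 0.0221). S100A1, a calcium-binding relative best known from muscle, read 1.45, 2.09 and 1.58 against 1.12, 0.441 and 0.432 CPM and was called lower (log2 fold change -1.38, SE 0.33, adjusted p = 0.0239). Of the 6 refits that each omitted 1 drug-treated library, 3 still called S100A1 (highest adjusted p = 0.101, without overexpression plus drug replicate 2). S100A12, another calgranulin, had 0 to 9 counts per drug-treated library and was not tested.

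**Figure D1:**
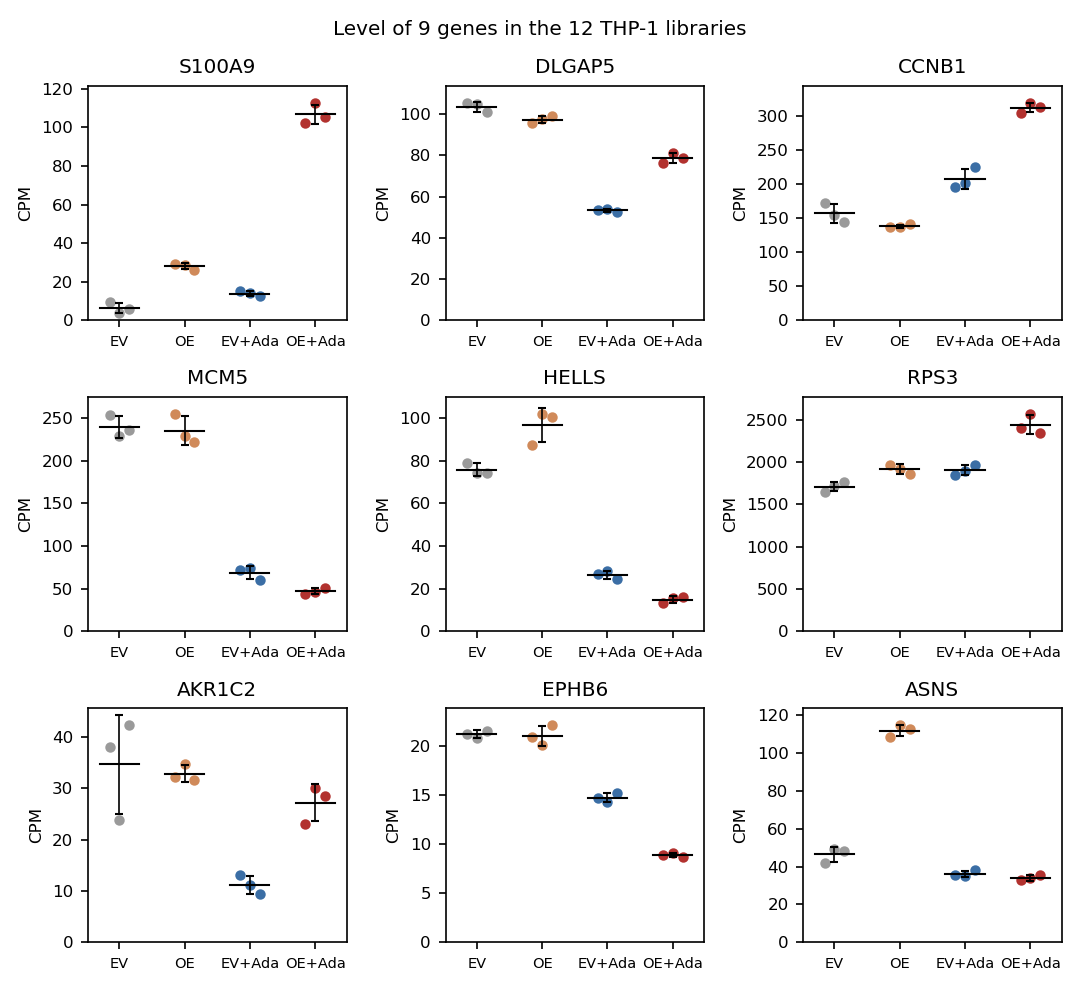
Level of 9 genes in CPM in each THP-1 library (points), with the mean (line) and SD (bars) of the 3 libraries of a group: empty vector (EV), overexpression (OE) and both with Adavivint (+Ada). S100A9 was highest in the overexpression libraries under the drug (103 to 113 CPM), DLGAP5, CCNB1 and RPS3 stood above the drug-treated empty vector and MCM5 and HELLS below it, and ASNS differed between the vectors without the drug and did not pass with it.

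Over all genes, 1309 of 15403 (8.5%) differed between the vectors under Adavivint at an adjusted p below 0.05, 569 higher (3.69%) and 740 lower (4.8%) with S100A9 overexpression, and 3589 had an unadjusted p below 0.05. Most of the changes were small: the median absolute log2 fold change of the called genes was 0.31, or 1.24-fold, and 47 genes (0.305%), 25 higher and 22 lower, reached 2-fold. The 3 libraries of each group did not overlap for 5048 genes (32.8%). The split of directions depended on the scaling, with 393 higher and 1555 lower when libraries were scaled by their total counts instead of TMM factors, which moved the median of all genes from -0.00 to -0.06 on the log2 scale. With the 6 drug-treated libraries fitted alone the split turned, to 973 higher and 863 lower. The number of calls depended on single libraries, and leaving out 1 gave 691 (empty vector plus drug replicate 1), 502 (replicate 2), 669, 543 and 775 (overexpression plus drug replicates 1, 2 and 3) and 2000 (untreated empty vector replicate 1). Of the 1309 genes, 1309 kept their direction without each of the drug-treated libraries in turn.

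**Figure D2:**
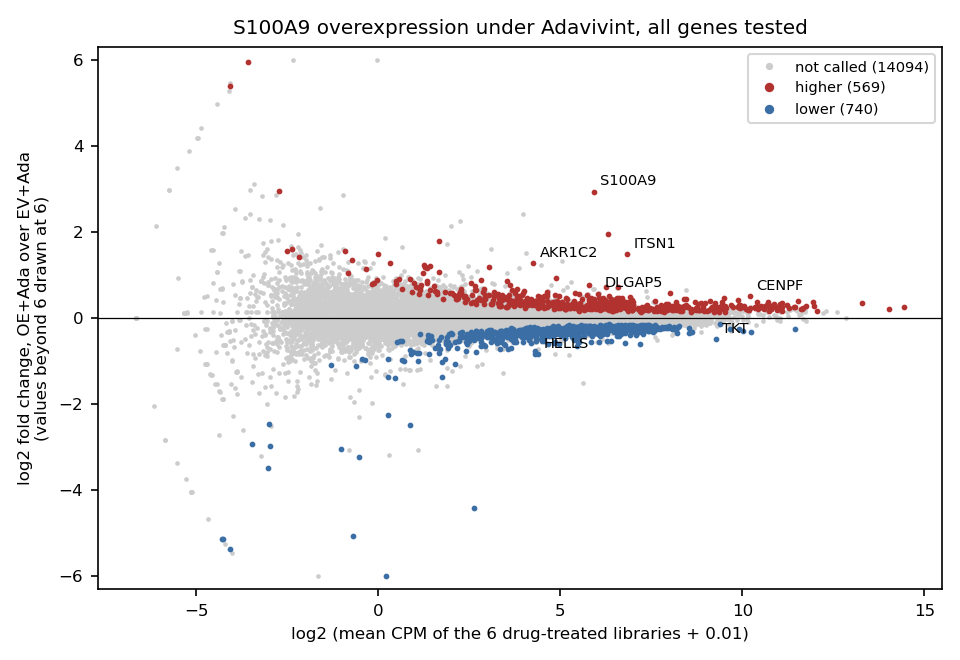
Log2 fold change of overexpression over empty vector under Adavivint against the mean level of each of the 15403 genes tested (log2 CPM), with genes called higher in red and lower in blue. S100A9 lay at 2.94, and all but 47 of the 1309 called genes lay within 1 log2 unit of 0.

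Genes of the mitotic machinery rose together. Of 31 genes of mitosis and G2/M, 22 were higher and none lower, against 3.69% higher among all genes tested; the median log2 fold change of the 31 was 0.30, against -0.00 for all genes. Their summed level was 6499, 6479 and 6441 CPM in the empty-vector libraries and 8154, 8291 and 8318 CPM in the overexpression libraries under the drug, so the groups did not overlap and the libraries within each lay close together. Without the drug, the sums were 6344, 6196 and 5791 CPM with empty vector against 5682, 5836 and 5876 CPM with overexpression. There, 1 of the 31 was higher and 7 were lower, against 14.9% higher and 13% lower among all genes. The overexpression effect differed with the drug for 24 of the 31 (adjusted p below 0.05, background 19.3% of all genes), each of them toward higher values under the drug (8.04% of all genes). The count of 22 stayed between 18 and 26 when any 1 of the 12 libraries was left out, and the median between 0.25 and 0.31 under the other scalings, filters and tools.

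DLGAP5 (ENSG00000126787, chromosome 14, 55148112 to 55191678, minus strand), a spindle protein, read 53.3, 54.0 and 52.4 CPM with empty vector and 76.4, 81.2 and 78.8 CPM with overexpression under the drug (log2 fold change 0.57, SE 0.04, adjusted p = 3.12e-05). Its smallest overexpression value lay well above its largest empty-vector value. CCNB1, cyclin B1, the partner of CDK1 at entry into mitosis, read 196, 202 and 224 against 304, 318 and 312 CPM (log2 fold change 0.59, SE 0.06, adjusted p = 0.000309). CENPF (ENSG00000117724, chromosome 1, 214603195 to 214664588, plus strand), a kinetochore protein, read 1003, 979 and 936.9 against 1348, 1381 and 1407 CPM (log2 fold change 0.50, SE 0.05). TOP2A, the topoisomerase that untangles sister chromatids and is a target of anthracyclines, read 611, 600 and 595 against 752, 784 and 806 CPM (log2 fold change 0.38, SE 0.04). In each of these genes the 3 overexpression libraries exceeded the 3 empty-vector libraries.

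The same direction held for CDC20, the activator of the anaphase-promoting complex (log2 fold change 0.44), for PRC1 and HMMR, which organise the spindle (0.46 and 0.45), for UBE2C, the ubiquitin-conjugating enzyme of the anaphase-promoting complex (0.44), and for AURKA, a spindle kinase (0.35). MKI67, the proliferation marker Ki-67, read 1466, 1458 and 1468 CPM against 1874, 1827 and 1849 CPM (log2 fold change 0.34, SE 0.05, adjusted p = 0.00164). Each of these calls was kept in the 6 refits that each omitted 1 drug-treated library. CDC20 had fallen with overexpression in the absence of the drug (log2 fold change -0.45, adjusted p = 0.000623), and its difference between the effects was 0.89 (adjusted p = 0.000185). Members that did not pass under the drug included PLK1 (0.20, adjusted p = 0.142), FOXM1 (0.22, adjusted p = 0.0647), CCNB2 (0.08) and CDC25C (-0.00). Outside the list, and chosen after their values were seen, NEK2 (0.46), KIF18A (0.47), CEP55 (0.44) and KPNA2 (0.44) were also called higher.

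Genes of DNA replication and the G1/S transition moved the other way. Of 39 members, 17 were lower and none higher, against 4.8% lower among all genes, and the median log2 fold change was -0.23. The sums were 2882, 2921 and 2790 CPM in the empty-vector libraries under the drug against 2435, 2516 and 2590 CPM in the overexpression libraries, without overlap. Without the drug the sums overlapped (7003, 6128 and 5928 against 6069, 6002 and 5974 CPM), with 1 member higher and 8 lower (14.9% and 13% of all genes). For 14 of the 39 the overexpression effect differed with the drug, 2 toward higher and 12 toward lower values (11.2% of all genes). The count of 17 fell to 11 without empty vector plus drug replicate 2, to 10 and 11 without overexpression plus drug replicates 1 and 2, and the median lay between -0.29 and -0.22 under the other scalings, filters and tools.

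MCM5, a subunit of the replicative helicase, read 71.9, 73.9 and 60.4 CPM with empty vector and 43.9, 46.2 and 51.0 CPM with overexpression (log2 fold change -0.55, SE 0.08, adjusted p = 0.00233). The helicase subunits MCM3 (-0.27) and MCM4 (-0.32) were also called lower, whereas MCM6 (-0.19, adjusted p = 0.111) and MCM7 (0.03, adjusted p = 0.817) did not pass. POLD1, the catalytic subunit of polymerase delta, read 50.9, 52.96 and 44.6 against 35.7, 35.3 and 38.5 CPM (log2 fold change -0.44, adjusted p = 0.00238). CHAF1B, a subunit of the chromatin assembly factor that follows the fork, read 11.2, 9.93 and 10.3 against 7.47, 7.01 and 7.59 CPM (log2 fold change -0.51, adjusted p = 0.00233). CDT1, the licensing factor, read 78.6, 83.8 and 73.5 against 59.4, 60.3 and 60.9 CPM (log2 fold change -0.39), and had risen with overexpression without the drug (0.35, adjusted p = 0.00101). For MCM5, POLD1, CHAF1B and CDT1 the libraries of both groups did not overlap.

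Other members of the replication list that fell were GINS2 (-0.56) and CDC45 (-0.46), which complete the helicase, and the ribonucleotide reductase subunits RRM1 (-0.31) and RRM2 (-0.54), which make deoxynucleotides. The call of RRM2 held in 3 of the 6 refits (highest adjusted p = 0.0578, without overexpression plus drug replicate 1), that of PCNA (-0.31), the sliding clamp, in 5 of 6 (0.0525, without the same library), and that of GINS2 in 5 of 6 (0.0526, without overexpression plus drug replicate 2). Outside the list, HELLS (ENSG00000119969, chromosome 10, 94501434 to 94613905, plus strand), a chromatin remodeller of replicating cells, read 26.7, 28.5 and 24.6 CPM against 13.3, 15.4 and 16.0 CPM (log2 fold change -0.83, SE 0.08, adjusted p = 0.000218) and had risen without the drug (0.35). FANCA, a DNA repair gene of the Fanconi anemia pathway chosen after its values were seen, was lower by a similar amount to MCM5 (-0.55, SE 0.06). CCND2, cyclin D2, read 56.4, 53.7 and 52.4 against 30.1, 35.4 and 37.8 CPM (log2 fold change -0.65, SE 0.09, adjusted p = 0.00115). Of 42 histone genes tested, 0 were called by edgeR (8.5% of all genes were), 6 had an unadjusted p below 0.05 and 3 passed with DESeq2, all 3 higher.

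**Figure D3:**
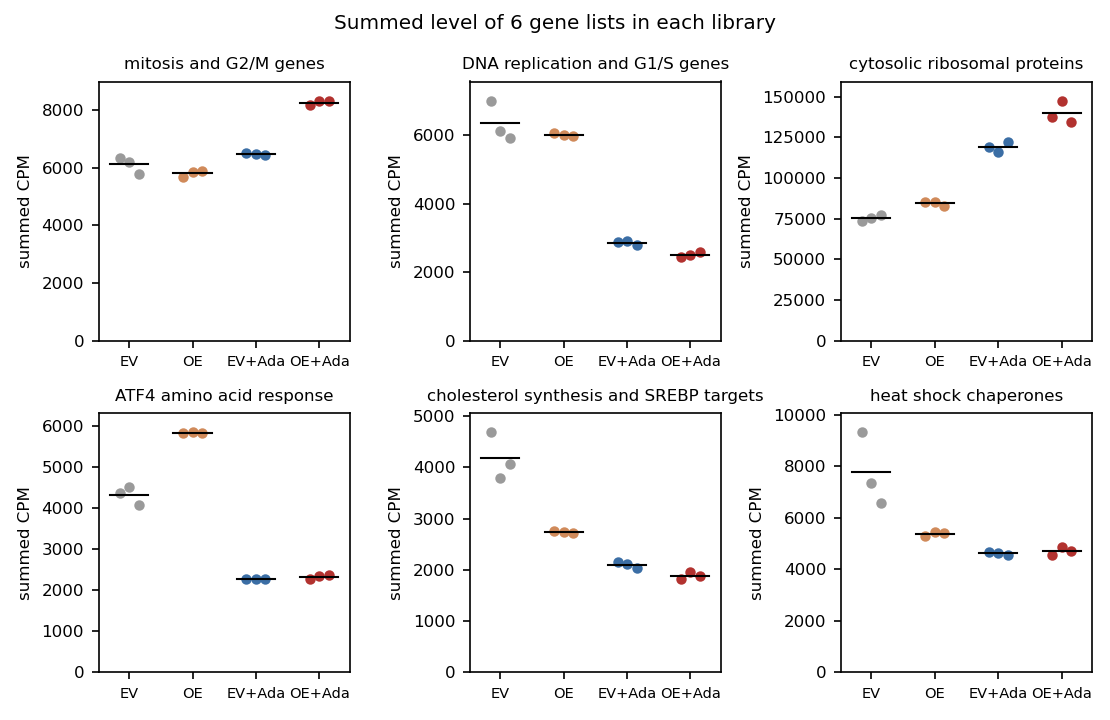
Summed level of 6 gene lists in CPM in each THP-1 library (points) with the group mean (line). Under the drug the mitosis sum stood higher with overexpression (8154 to 8318 against 6441 to 6499 CPM) and the replication sum lower (2435 to 2590 against 2790 to 2921 CPM), while the ATF4, cholesterol and heat shock sums showed wider gaps between the vectors without the drug.

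Promoters of both groups were examined for letters known from cell-cycle promoters, since members of each list moved together. The windows are the 250 bases before the RefSeq start site (GRCh38.p14), searched on both strands for TTTGAA (the core of the cell cycle genes homology region), CCAAT, and TTTCCCGC or TTTGGCGC (common E2F letters). TTTGAA stood in 13 of 25 matched mitosis genes (52%) and in 1 of 33 matched replication genes (3.03%), against 13.6% of 27305 promoters. CCAAT stood in 20 of 25 mitosis genes (80%) and 19 of 33 replication genes (57.6%), against 33% of all promoters. The E2F letters stood in 13 of 33 replication genes (39.4%) and 2 of 25 mitosis genes (8%), against 1.96% of all promoters. Over the 12128 matched promoters of all genes tested, the shares were 9.09% for TTTGAA, 34.7% for CCAAT and 2.92% for the E2F letters. Among the members called under the drug, TTTGAA was in 10 of 18 matched mitosis genes (55.6%) and the E2F letters in 4 of 15 matched replication genes (26.7%). The latter share was lower than that of the whole replication list (39.4%). For the called mitosis genes the shares lay slightly above those of their whole list, at 55.6% against 52% for TTTGAA and 88.9% against 80% for CCAAT. Whether the letters go with the calls within a list was not tested. The windows of 3 genes are shown because these were called and hold such letters: MKI67 and CENPF, which rose, with TTTGAA and CCAAT of either strand in capitals, and PCNA, which fell, with the E2F letters in capitals.
MKI67, chr10:128126424-128126673, minus strand: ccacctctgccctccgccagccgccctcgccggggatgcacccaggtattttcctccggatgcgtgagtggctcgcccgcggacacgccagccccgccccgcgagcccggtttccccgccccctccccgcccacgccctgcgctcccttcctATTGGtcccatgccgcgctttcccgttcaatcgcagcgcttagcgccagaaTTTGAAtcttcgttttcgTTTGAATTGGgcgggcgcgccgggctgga
CENPF, chr1:214602945-214603194, plus strand: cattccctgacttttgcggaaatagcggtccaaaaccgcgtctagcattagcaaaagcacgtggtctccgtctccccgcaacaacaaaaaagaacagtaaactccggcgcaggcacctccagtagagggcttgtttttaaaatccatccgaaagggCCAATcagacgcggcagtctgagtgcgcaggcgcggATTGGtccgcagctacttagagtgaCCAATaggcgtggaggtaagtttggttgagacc
PCNA, chr20:5126623-5126872, minus strand: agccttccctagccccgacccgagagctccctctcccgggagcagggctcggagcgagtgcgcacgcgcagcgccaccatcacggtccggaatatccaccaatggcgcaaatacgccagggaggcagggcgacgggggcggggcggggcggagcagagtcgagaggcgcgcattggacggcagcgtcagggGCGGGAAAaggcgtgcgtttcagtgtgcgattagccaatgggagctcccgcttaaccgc
The CENPF window holds CCAAT letters but no TTTGAA, the MKI67 window holds both, with 1 TTTGAA overlapping a reverse CCAAT, and the PCNA window holds the E2F letters on the opposite strand.

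The genes of the cytosolic ribosome rose together by small amounts. Of 79 ribosomal protein genes, 63 were higher and none lower, against 3.69% higher and 4.8% lower among all genes. The log2 fold changes ran from 0.06 (RPS2, not called) to 0.37 (RPS10) with a median of 0.25. Their sum was 119160, 115830 and 121890 CPM with empty vector and 137520, 147510 and 134710 CPM with overexpression under the drug. The effect was also present without the drug, where 40 of the 79 were higher and none lower (14.9% and 13% of all genes), with a median of 0.15. Of the 79, 4 passed the test of the difference (19.3% of all genes). The count of 63 fell to 41 and 25 without empty vector plus drug replicates 1 and 2 and to 29 without overexpression plus drug replicate 2; the median stayed between 0.19 and 0.25 under the other scalings, filters and tools.

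RPS3, a protein of the small subunit, read 1847, 1898 and 1970 CPM against 2405, 2562 and 2348 CPM (log2 fold change 0.36, SE 0.05, adjusted p = 0.00107). TPT1, the translationally controlled tumor protein whose mRNA is regulated with those of the ribosome, read 3465, 3391 and 3473 against 4383, 4603 and 4357 CPM (log2 fold change 0.37, SE 0.04). Both genes were without overlap. Of 30 translation factors 4 were higher and 2 lower (3.69% and 4.8% of all genes). The 4 were EEF1B2 (0.34), EEF1A1 (0.26), EIF3L (0.24) and EEF1G (0.27), 3 of which are elongation factor subunits. EEF1G kept its call in 3 of the 6 refits. EEF2K, the kinase that restrains elongation, chosen after its values were seen, fell from 54.2, 53.1 and 52.9 to 38.1, 34.8 and 35.5 CPM (log2 fold change -0.56, SE 0.05, adjusted p = 9.91e-05) and had risen without the drug (0.25). Of 40 ribosome biogenesis genes 1 was lower (TAF1B, -0.33, kept in 1 of the 6 refits) and none higher, against 4.8% and 3.69% of all genes. MYC, a driver of ribosome production, read 17.2, 18.3 and 14.9 against 17.9, 21.5 and 25.1 CPM, and its log2 fold change of 0.36 (SE 0.10) did not pass (adjusted p = 0.0509), although it passed with DESeq2 (adjusted p = 0.00414).

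**Figure D4:**
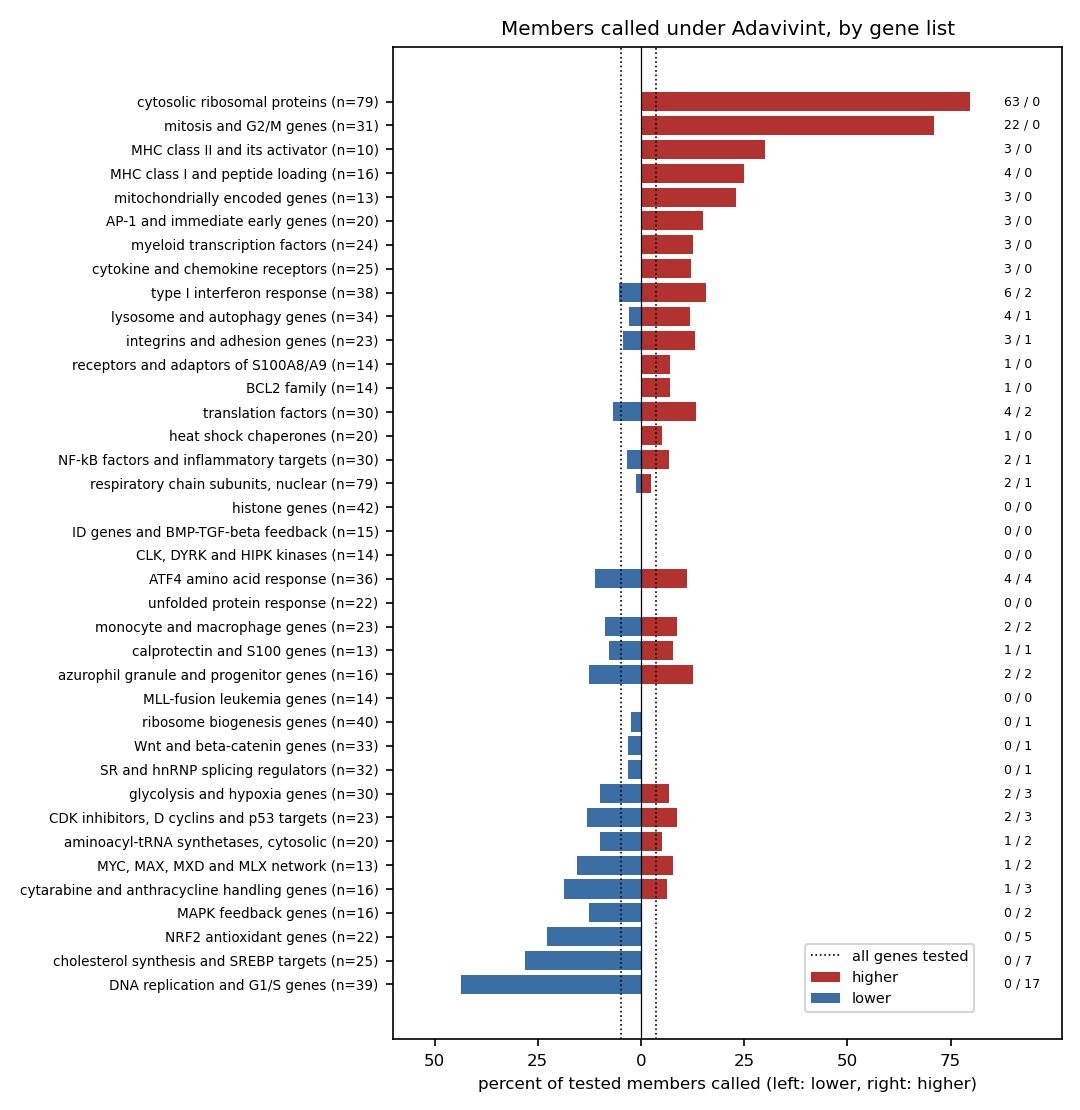
Percent of the tested members of each gene list called higher (red, right) or lower (blue, left) with overexpression under Adavivint, with the numbers higher and lower at the right and the shares over all genes (3.69% and 4.8%) as dotted lines. Ribosomal proteins (63 of 79) and mitosis genes (22 of 31) stood out to the right and replication genes (17 of 39) to the left.

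Among the single genes with the largest fold changes under the drug, AKR1C2, IGLL1, IL1B and CHI3L1 rose, and CLEC5A, HELLS and EPHB6 fell. AKR1C2 (ENSG00000151632, chromosome 10, 4987400 to 5018031, minus strand), an aldo-keto reductase of steroid metabolism, read 13.0, 11.2 and 9.42 CPM with empty vector and 23.1, 30.1 and 28.4 CPM with overexpression (2.43-fold, log2 fold change 1.28, SE 0.18, adjusted p = 0.00164). Its near-identical neighbour AKR1C1 also rose (1.19, adjusted p = 0.00552), and reads of the pair can be shared, so that either value is uncertain. IGLL1, a surrogate light chain of early B cells that is also read in immature leukemia, read 5.72, 4.65 and 4.62 against 10.8, 10.1 and 13.1 CPM (log2 fold change 1.19, SE 0.11, adjusted p = 9.91e-05). AKR1C2 and IGLL1 were named by a rule that asked for no overlap between the groups. AKR1C1 did not overlap either, as was true of 32.8% of all genes.

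IL1B, the inflammatory cytokine interleukin-1 beta, read 5.58, 4.90 and 4.29 CPM with empty vector and 8.85, 10.7 and 7.75 CPM with overexpression (log2 fold change 0.89, SE 0.16, adjusted p = 0.0052). CHI3L1, a secreted chitinase-like protein of macrophages, read 8.05, 8.77 and 7.94 against 14.2, 16.7 and 13.9 CPM (log2 fold change 0.85, SE 0.11), and had fallen with overexpression without the drug (-0.77, adjusted p = 0.000506). SUCNR1, the succinate receptor, read 4.82, 4.39 and 3.65 against 6.37, 7.21 and 8.86 CPM (log2 fold change 0.81), and had also fallen without the drug (-0.43). CA2, carbonic anhydrase 2, rose by 0.77 both with and without the drug, and TRIB3, a pseudokinase of the stress response, by 0.73 and 0.75. Each of IL1B, CHI3L1, SUCNR1, CA2 and TRIB3 kept its call in all 6 refits.

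ITSN1, an endocytic scaffold, read 27.8, 120 and 31.2 CPM with empty vector and 171, 164 and 170 CPM with overexpression. The empty-vector library of replicate 2 lay closer to the overexpression libraries than to the other two of its group. The call (log2 fold change 1.49, adjusted p = 0.0312) was kept in 1 of the 6 fits, and the log2 fold change ran from 1.15 without empty vector plus drug replicate 1 to 2.51 without replicate 2. PTGER3, a prostaglandin receptor (0.94), OR5B2, an olfactory receptor gene (0.77), and CYP1B1, a cytochrome P450 of the dioxin response (0.76), kept their calls in 2, 1 and 1 of the 6 fits, with highest adjusted p of 0.108, 0.0795 and 0.113. The highest log2 fold change among loci without a symbol, chosen after its values were seen, was that of ENSG00000285043 (1.96, SE 0.21), with 33.9, 40.3 and 23.2 against 131, 136 and 112 CPM.

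On the other side, CLEC5A, a lectin receptor of monocytes, read 30.4, 25.8 and 19.6 CPM with empty vector and 12.9, 13.9 and 15.3 CPM with overexpression (log2 fold change -0.84), and fell without the drug as well (-0.48). EPHB6, a kinase-dead ephrin receptor, read 14.7, 14.3 and 15.2 against 8.96, 9.08 and 8.73 CPM (log2 fold change -0.73, SE 0.07, adjusted p = 9.91e-05), with a value of -0.01 without the drug. MTAP, which salvages methylthioadenosine in polyamine metabolism, read 16.7, 16.1 and 13.6 against 9.44, 9.29 and 9.80 CPM (log2 fold change -0.70). Lack of overlap between the groups was asked of these genes by the rule that named them. Each call was kept in 6 of the 6 fits.

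FAM161B (-0.78), EIF4E3, a cap-binding protein (-0.71), and GBP5, a guanylate-binding protein of the interferon response (-0.65), were also lower in all 6 fits. TP53INP1, a p53 target (-0.76), PTGS1, the constitutive cyclooxygenase (-0.76), and CDK18 (-0.70) were lower with calls kept in 4, 2 and 1 of the 6 fits (highest adjusted p 0.0623, 0.0775 and 0.129). PAX5, a B-lineage transcription factor below the level asked of the named genes, read 1.95, 1.96 and 1.98 against 0.827, 0.649 and 0.773 CPM (log2 fold change -1.39, SE 0.13, adjusted p = 9.91e-05), and was chosen after its values were seen. Of 90 readthrough loci tested, 5 were lower and none higher (4.8% and 3.69% of all genes), and reads of such loci are shared with the genes they join.

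Calls were more frequent in the antigen-presentation and interferon lists, with 30% of the MHC class II, 25% of the MHC class I and 15.8% of the interferon-response members higher against 3.69% of all genes, than in the NF-kB list (6.67% higher). Without the drug, 4 of 10 class II, 6 of 16 class I and 10 of 38 interferon-response members were already higher (14.9% of all genes). The median log2 fold changes of these lists were 0.69, 0.07 and 0.29 without the drug and 0.23, 0.01 and 0.07 with it. The effect differed with the drug for 0 class II members. It differed toward higher values for 2 class I and 2 interferon-response members (8.04% of all genes). Toward lower values it differed for 1 and 7 (11.2% of all genes). Without the drug, 14 of 30 NF-kB members were higher and 4 lower (14.9% and 13% of all genes). Their median was 0.23 without the drug and 0.03 with it, and the effect differed for 4 toward higher and 9 toward lower values. Under the drug, 2 of these 30 NF-kB factors and inflammatory targets were higher (IL1B and TNF) and 1 was lower (TNFAIP2). The calls of TNF (0.45) and TNFAIP2 (-0.25) were kept in 0 and 1 of the 6 fits. Of 14 receptors and adaptors described for calprotectin 1 was higher, EMB, the membrane protein embigin (0.40, adjusted p = 0.0196, kept in 4 of 6 fits), while TLR4 (0.17), CD14 (0.04) and AGER (-0.23) did not pass. Among 25 cytokine and chemokine receptors 3 were higher and none lower. CXCR4, the chemokine receptor that holds leukemic cells in the marrow, read 495, 509 and 420 against 609, 621 and 635 CPM (log2 fold change 0.39, adjusted p = 0.0145, kept in 5 of 6 fits), FLT3 rose by 0.56 (6 of 6) and IL6R by 0.33 (2 of 6).

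Of 16 genes of MHC class I and peptide loading 4 were higher and none lower, among them HLA-B (0.46), HLA-C (0.17) and B2M (0.22). HLA-B read 602, 623 and 613 CPM against 864, 844 and 820 CPM (SE 0.05, adjusted p = 0.000218). The calls of HLA-C and B2M were kept in 0 and 3 of the 6 fits, and HLA-C did not pass when libraries were scaled by their totals (adjusted p = 0.18). Of 10 MHC class II genes and their activator 3 were higher and none lower, and all 10 log2 fold changes were positive. CD74, the invariant chain, read 88.6, 90.7 and 95.3 against 114, 116 and 111 CPM (log2 fold change 0.31, adjusted p = 0.00602), and HLA-DRA read 2.35, 2.11 and 1.65 against 4.37, 4.67 and 3.80 CPM (1.07, adjusted p = 0.0172, kept in 2 of 6 fits). Of 38 interferon-response genes 6 were higher, among them SAMD9 (0.33), OASL (0.91) and IFIT1 (0.76, kept in 1 of 6 fits), and 2 were lower, among them OAS3 (-0.33, kept in 1 of 6). IFI30, a lysosomal thiol reductase of antigen processing chosen after its values were seen, rose from 64.1, 66.1 and 70.9 to 95.6, 98.4 and 92.0 CPM (log2 fold change 0.51) and had fallen without the drug (-0.83).

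Myeloid identity genes were mixed, and their counts are read against the 3.69% of all genes that were higher and the 4.8% that were lower. Of 24 myeloid transcription factors 3 were higher and none lower: CEBPA (0.22), GATA2 (0.46) and CEBPE (0.39), with calls kept in 3, 3 and 1 of the 6 fits. All 3 had been lower with overexpression without the drug (log2 fold changes of -0.29, -0.68 and -0.35). Of 23 monocyte and macrophage genes 2 were higher, ITGAM (0.32) and FCGR1A (0.47), and 2 lower, GPNMB (-0.26) and FCN1 (-0.53), with calls kept in 2, 2, 5 and 1 of the 6 fits. Azurophil granule genes gave 2 higher and 2 lower of 16, and the granule ribonucleases RNASE2 (-0.33) and RNASE3 (-0.29) were the lower pair, as they had been without the drug (-0.71 and -0.70), with calls under the drug kept in 0 and 1 of the 6 fits. Of 14 genes of the MLL-fusion program, 0 were called by edgeR, 3 had an unadjusted p below 0.05 and 3 passed with DESeq2.

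The cholesterol synthesis and NRF2 lists held only lower calls under the drug (4.8% of all genes were lower). Of 25 genes of cholesterol synthesis 7 were lower and none higher: DHCR7, MVK, LSS, ACAT2, MVD, FDFT1 and the regulator SREBF2. DHCR7, which completes cholesterol synthesis, read 53.3, 54.3 and 49.6 against 39.3, 37.9 and 38.2 CPM (log2 fold change -0.45, SE 0.07, adjusted p = 0.00316). These members were lower without the drug too, where DHCR7 fell by 0.79 on the log2 scale, with the exception of SREBF2 (0.01), and the calls of ACAT2 and MVD were kept in 3 and 0 of the 6 fits. The count of 7 was 11 without untreated empty vector replicate 1. Of all 25 members, 19 were lower and 1 higher without the drug (13% and 14.9% of all genes). The median log2 fold change of the 25 was -0.68 without the drug and -0.17 with it. For 14 the effect differed toward higher and for 1 toward lower values under the drug (8.04% and 11.2% of all genes). Of 22 NRF2 antioxidant genes 5 were lower and none higher: TKT, TALDO1 and PGD of the pentose phosphate pathway, TXNRD1 and NQO1. TKT read 723, 785 and 663 CPM against 504, 523 and 514 CPM (log2 fold change -0.49, SE 0.06, adjusted p = 0.000587), and its value without the drug was 0.06. The list as a whole was lower without the drug too, with 15 of 22 lower and 2 higher (13% and 14.9% of all genes). Its median log2 fold change was -0.29 without the drug and -0.14 with it. The calls of NQO1 and TXNRD1 were kept in 3 and 2 of the 6 fits.

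In 30 glycolysis and hypoxia genes 2 were higher and 3 lower (6.67% and 10%, against 3.69% and 4.8% of all genes). PDK1, which restrains the entry of pyruvate into mitochondria, read 190, 187 and 154 CPM against 111, 116 and 120 CPM (log2 fold change -0.61, SE 0.08, adjusted p = 0.000879), and had risen with overexpression without the drug (0.57). VEGFA rose by 0.26. Mitochondrially encoded genes gave 3 higher and none lower of 13, MT-CO3 (0.34), MT-CO1 (0.22) and MT-CYB (0.39), with the calls of MT-CO1 and MT-CYB kept in 2 and 2 of the 6 fits. Of 79 nuclear respiratory chain subunits 2 were higher and 1 was lower, smaller shares (2.53% and 1.27%) than among all genes.

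The ATF4 amino acid response, by contrast, showed the vectors apart mainly without the drug. Of its 36 members, 31 were higher and 1 lower with overexpression without Adavivint (of all genes, 14.9% were higher and 13% lower). With it 4 were higher and 4 lower (11.1% each, against 3.69% and 4.8% of all genes). For 23 the effect differed, each toward lower values under the drug. ASNS, asparagine synthetase, read 41.8, 49.2 and 48.4 CPM with empty vector and 108, 114 and 112 CPM with overexpression without the drug, but 35.4, 35.0 and 38.0 against 32.7, 33.8 and 35.5 CPM with it. The first pair of groups lay far apart (log2 fold change 1.27), and under the drug the value was -0.09 (adjusted p = 0.46), so that the effects differed by -1.36 (adjusted p = 8.8e-06). DDIT3, CHAC1 and DDIT4 gave 0.11, 0.17 and 0.01 under the drug after 0.93, 1.62 and 1.34 without it.

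Members of the ATF4 list that did change under the drug went both ways. TRIB3 and ATF5 were higher (0.73 and 0.57), PSPH and CEBPG as well (0.36 and 0.20), while PHGDH, the entry enzyme of serine synthesis, read 105, 115 and 118 against 83.4, 80.6 and 87.5 CPM (log2 fold change -0.43, SE 0.06, adjusted p = 0.00157) after a rise without the drug (0.56). SHMT2 (-0.22), GPT2 (-0.27) and ALDH18A1 (-0.33) were also lower. The calls of CEBPG, SHMT2, GPT2 and ALDH18A1 were kept in 2, 2, 2 and 1 of the 6 fits, and those of TRIB3, ATF5, PSPH and PHGDH in all 6. The list's median, 0.04, was -0.01 when libraries were scaled by their totals. The counts were 8 higher and 8 lower without untreated empty vector replicate 1, and 7 were higher without its replicate 3. The count of 4 lower fell to 2, 1, 1, 1 and 2 without empty vector plus drug replicates 1 and 2 and overexpression plus drug replicates 1, 2 and 3.

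Heat shock chaperones gave 1 higher (DNAJB4, 0.39, kept in 0 of 6 fits) and none lower of 20 under the drug (3.69% and 4.8% of all genes). Without it 0 were higher and 16 lower (14.9% and 13% of all genes), and 13 passed the test of the difference (19.3% of all genes). Of 14 CLK, DYRK and HIPK kinases, the group of the drug's reported targets, 0 were called by edgeR, against 8.5% of all genes. Among the 14, 2 had an unadjusted p below 0.05 and 2 passed with DESeq2, both higher. CLK2 read 74.7, 79.4 and 89.7 against 77.5, 75.8 and 79.6 CPM (log2 fold change -0.07, SE 0.07), with overlapping libraries. DYRK1A read 230, 233 and 245 against 260, 253 and 268 CPM without overlap (0.14, SE 0.04, adjusted p = 0.0589), and it passed with DESeq2 (adjusted p = 0.00699). Of 33 Wnt genes 1 was lower, the receptor FZD4 (-0.83, adjusted p = 0.00656), and of 32 SR and hnRNP splicing regulators 1 was lower, HNRNPD (-0.26, kept in 4 of 6 fits). These shares, 3.03% and 3.125%, lay near the 4.8% of all genes that were lower, so neither list stood out.

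In the other lists the calls are read against the 3.69% of all genes that were higher and the 4.8% that were lower. AP-1 and immediate early genes gave 3 higher and none lower of 20: IER5 (0.37), JUNB (0.39) and FOS (0.29), of which IER5 kept its call in 6 of the 6 fits and the others in 0. Of 34 lysosome and autophagy genes 4 were higher, among them the hydrolases HEXA (0.28) and GAA (0.39) and the autophagy receptor NBR1 (0.35), and 1 was lower. Of 16 genes that handle cytarabine or anthracyclines, TOP2A was higher, and the transporter ABCC4 (-0.47) was lower with RRM1 and RRM2. Integrins and adhesion genes gave 3 higher and 1 lower of 23, CDK inhibitors, D cyclins and p53 targets 2 and 3 of 23, cytosolic aminoacyl-tRNA synthetases 1 and 2 of 20, and MAPK feedback genes 0 and 2 of 16. The BCL2 family gave 1 higher of 14, the BH3-only gene PMAIP1 (0.38, kept in 2 of 6 fits). Of 22 genes of the unfolded protein response 0 were called by edgeR or DESeq2 and 2 had an unadjusted p below 0.05, and of 15 ID and BMP feedback genes 0 were called by edgeR, 4 had an unadjusted p below 0.05 and 2 passed with DESeq2.

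Whether the overexpression effect was the same with and without Adavivint was tested gene by gene. Without the drug 4307 genes (28%) differed between the vectors, 283 of them at least 2-fold (1.84%), against 1309 and 47 with it. The effect itself differed for 2968 genes (19.3%), 1239 toward higher and 1729 toward lower values under the drug, and for 303 of them by at least 2-fold (1.97%). The comparisons share no library. A total of 511 genes passed in both, 39.0% of the genes called under the drug and 11.9% of those called without it. Of the 511, 295 had the same direction (153 higher and 142 lower) and 216 the opposite one, of which 84 were higher under the drug and lower without it and 132 the reverse. Among the largest opposite changes, by the rule for named genes, were CHI3L1 and CYP1B1 above, ADAMTS15, a secreted protease (0.71 with the drug and -0.73 without it), CDK18 (-0.70 and 0.62) and NR5A1, a nuclear receptor of steroid tissues (0.61 and -1.23). The calls of ADAMTS15 and NR5A1 under the drug were kept in 0 of the 6 fits (highest adjusted p = 0.126 and 0.156 with edgeR). Those of CYP1B1 and CDK18 were kept in 1 each. Across all genes tested, which are not independent replicates, the log2 fold changes of both comparisons had a Pearson r of -0.01 and a Spearman rho of 0.01. The count of 511 shared calls fell to 337, 260 and 308 without untreated empty vector replicate 2 and untreated overexpression replicates 2 and 3, and to between 186 and 305 without each of the drug-treated libraries other than empty vector replicate 3.

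**Figure D5:**
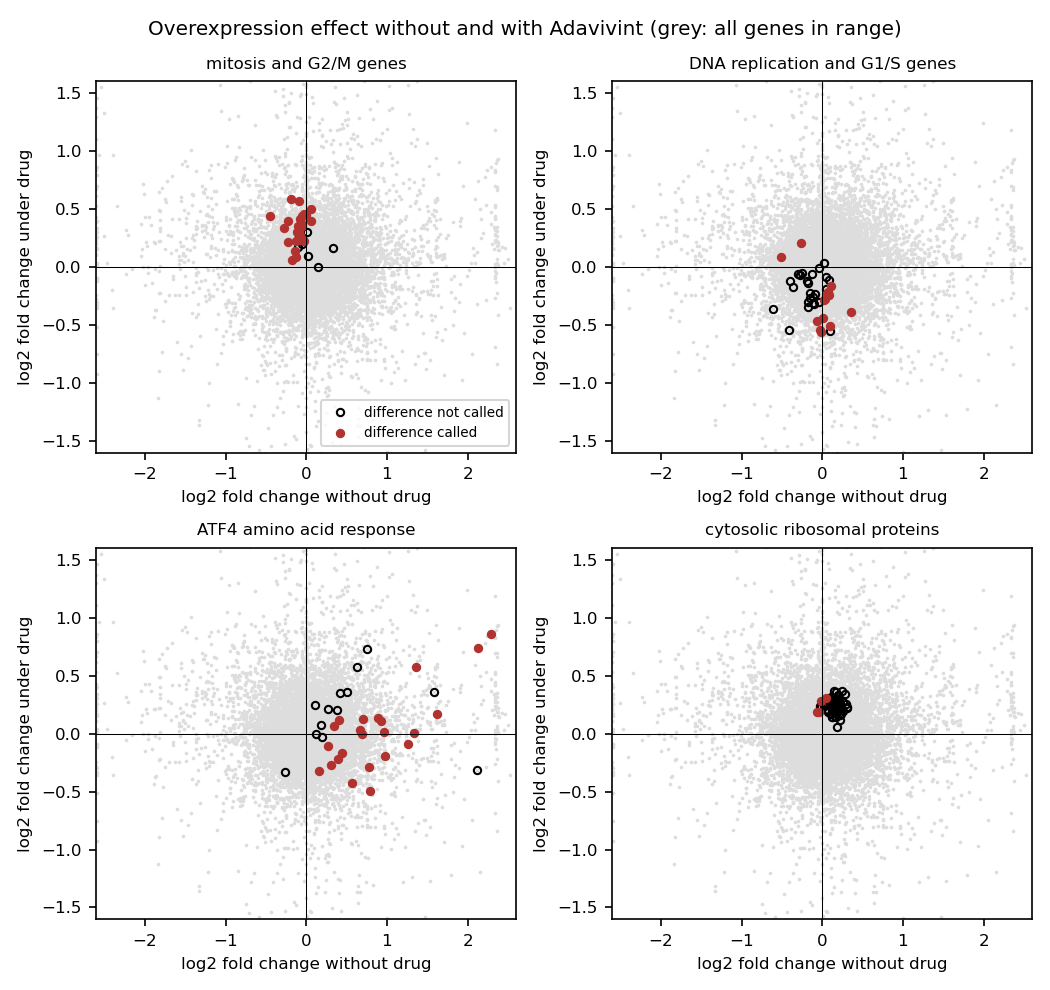
Log2 fold change of overexpression with Adavivint (vertical) against that without it (horizontal) for 4 gene lists, with all genes in grey and members whose effect differed in filled red. Mitosis genes lay above 0 with the drug and near or below 0 without it (24 of 31 filled), ATF4 genes lay far to the right and near 0 vertically (23 of 36), and ribosomal proteins lay above 0 on both axes (4 of 79).

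The called genes also differed in length and level, which are properties the choice of groups did not use. Sorted into 4 bins of equal size by exonic length, 2.27%, 4.26%, 5.36% and 7.42% of genes were lower from the shortest to the longest bin, and 4.00%, 4.47%, 3.42% and 2.93% were higher. Without the ribosomal protein genes, the shares of higher genes were 3.15%, 4.07%, 3.18% and 2.84%. By mean level, 1.40% of the lowest of 4 bins and 14.6% of the highest were called, so that the small changes reported above were found mostly in well-covered genes. The part of length and level in the results on gene lists was not tested.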

How the data were processed

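RNA-seq of total RNA was deposited by the authors as a table of read counts per gene, raw and not normalized. Reads were aligned with HISAT2 2.0.4 per the submitters' processing notes, and for the counter, the build, the annotation and strandedness the labels name nothing (not given in the sources used here). Groups follow the labels. The table holds 18670 genes, of which 18642 IDs matched a symbol and 28 did not, and 18482 IDs were found in GENCODE 29 (GRCh38), which gave positions, lengths and exons. The counts of the 12 THP-1 libraries (38.4 to 84.4 M) were filtered with filterByExpr, scaled by TMM and fitted in 1 model with edgeR 4.0.16 (quasi-likelihood F test, Benjamini-Hochberg adjustment over 15403 genes, limma 3.58.1, R 4.3.3). Contrasts were overexpression over empty vector under the drug, the same without it, and their difference. SE is the absolute log2 fold change over the root of F. Replicates of a group differed by more than counting noise (chi-square per degree of freedom 7.18 to 37.2), so none was merged.

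On simulated data with 15251 genes tested for this comparison, the fit recovered 46 of 100 at a 1.3-fold change and 95 of 100 at 2-fold, and 10 unchanged genes were called. Alternatives were DESeq2 1.42.0, its size factors, library totals, other count filters, the 6 drug-treated libraries alone, a replicate block and each library left out. The members and lists were chosen with earlier results of these data known. Named genes were S100A9, S100A8 and S100A12, the 12 higher and 12 lower called genes with the largest fold change (at least 5 CPM in the higher group, no overlap, no unnamed or readthrough locus), up to 4 called members of each list by smallest p, the 6 genes in each direction with the largest difference between the effects, and the 6 largest changes in opposite directions. Other genes were named after their values were seen, and some genes that these rules name are not reported here. Promoter windows are from RefSeq (GRCh38.p14), for called members with a motif and at most 30 bases of overlap with the gene's own annotated span. The other 6 libraries of the series are not analysed here.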

Additional observations from a re-analysis of the deposited data

Results flagged for a closer look

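The results in this paragraph are those for which the overexpression effect with Adavivint differed from that without it by the test of the difference. They were 2968 genes in all (19.3% of those tested), with 24 of 31 mitosis genes, 14 of 39 replication genes, 23 of 36 ATF4 genes, 13 of 20 heat shock chaperones, 15 of 25 cholesterol genes, and 31 of 79 nuclear respiratory chain subunits. Of 79 ribosomal protein genes, 4 differed, a smaller share than among all genes. Single genes were CHI3L1 (log2 difference 1.62), CYP1B1 (1.54), ADAMTS15 (1.44), NR5A1 (1.84) and CDK18 (-1.33), which changed in opposite directions. Their calls under the drug were kept in 6, 1, 0, 0 and 1 of the 6 fits that each omitted a drug-treated library. GZMA, a granule protease (2.65), and ID3, an inhibitor of differentiation (2.04), were lower with overexpression without the drug, with 1493 against 449 and 1718 against 808 counts over 3 libraries. MROH7 (-2.55) and RIC3 (-2.32) had 148 against 490 and 294 against 1191 counts without the drug, and KIAA0753 (-2.90) had 406 against 66 counts with it. The call of KIAA0753 under the drug (adjusted p = 0.0485 with edgeR) was kept in 1 of the same 6 fits. Its adjusted p rose to 0.193 without empty vector plus drug replicate 2.

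Some differences rest on libraries with few counts, and their fitted values are no measured folds. MYZAP (5.65), RPH3A (5.10), C13orf42 (4.43) and GDA (4.06) had 16, 13, 6 and 6 counts in the untreated empty-vector libraries and 0 in the untreated overexpression libraries. CHRNE (-3.19) had 3 against 36 and NPC1L1 (-2.42) had 4 against 30 counts. KBTBD11-OT1 (-8.11) read 46.4, 55.2 and 0.0158 CPM in the untreated overexpression libraries, so that replicate 3 stood apart from the other two.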

How the results depend on the processing

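The 1309 calls under the drug were 2026 with DESeq2 (992 higher and 1034 lower), 1948 with library totals, 1836 with the 6 libraries alone (973 higher and 863 lower) and 982 with a replicate block. Leaving out 1 library gave 502 to 2000 calls, and 33 to 66 genes past 2-fold. Calls without the drug ran from 2735 to 4983, those of the difference from 1885 to 3724 and shared calls from 186 to 693 (842 with DESeq2). The cause was not tested. No direction of a called gene reversed. Of the named genes other than S100A9, 13 lost their call with library totals, 18 with the block, 9 with the 6 libraries alone, 8 without a count filter and 1 with DESeq2. S100A9 stayed between 2.88 and 2.99 and was called in all of these fits. DESeq2 called 8 ATF4 genes higher and 7 lower. Same-numbered libraries did not deviate together (r from -0.111 to 0.105 over 18 pairs), and under the replicate block 951 of the 1309 calls were kept. Of 100 simulated 1.3-fold changes 46 were recovered. By mean level, 1.40% of the lowest of 4 bins of genes and 14.6% of the highest were called.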

Other observations

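Among genes with no count in the empty-vector libraries under the drug, ADGRG3, an adhesion receptor of granulocytes, had 18 counts in the 3 overexpression libraries, at least 6.54-fold higher against a floor of 3 counts over the group. ACOXL had 0 against 12 counts, at least 4.41-fold higher, and lost its call in 5 of the 6 fits that each omitted a drug-treated library. The floor covers counting error only. Among called genes outside the lists and chosen after their values were seen, ZC3H14, a poly(A)-binding protein, was higher (log2 fold change 0.72) and IDH2, the mitochondrial isocitrate dehydrogenase, was lower (-0.54). Of the genes on chromosome 15, 13.7% were called (23 higher and 47 lower of 511), against 8.5% of all genes.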
